A study of Arabidopsis thaliana with 8 samples.

Results

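The abscisic acid signalling core was followed here through 10 Arabidopsis genes, taken by locus identifier from 27529 protein-coding genes. They are the phosphatases ABI1 (AT4G26080) and ABI2 (AT5G57050), the kinases SnRK2.2 (AT3G50500), SnRK2.3 (AT5G66880) and SnRK2.6 (AT4G33950, also called OST1), and the transcription factors ABF1 (AT1G49720), ABF2 (AT1G45249), ABF3 (AT4G34000), ABF4 (AT3G19290) and ABI5 (AT2G36270). All 10 were found in the gene annotation. A gene was said to have a peak when the middle of an m6A-bound peak lay in an exon on its own strand.

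Abscisic acid is the plant hormone of drought and seed dormancy. Receptors of the PYR/PYL family bind it and then inhibit phosphatases such as ABI1 and ABI2. The phosphatases otherwise hold SnRK2 kinases inactive, so their inhibition lets the kinases phosphorylate the ABF and ABI5 factors, which bind promoters of stress and seed genes. In leaves the best-known output is closure of the stomata, for which SnRK2.6 is the main kinase of the 3. N6-methyladenosine (m6A) is a methylated adenosine found within mRNA, made by a complex whose catalytic subunits include MTA, and in plants as in animals it is found mostly near stop codons and in 3' untranslated regions (3' UTRs).

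The study set wild-type Col-0 plants against ABI3:MTA plants, called mta, which are also Col-0. Because loss of MTA stops embryo growth, such plants carry MTA under the promoter of ABI3, a gene active mainly in embryos; how much MTA is left in their leaves was not measured here. Both genotypes gave leaves 5 to 9 of plants grown for 4 weeks, with no treatment, and each was sampled in 2 libraries of poly(A) RNA bound by an antibody to m6A after crosslinking (miCLIP). The supernatant libraries were not analysed here, and no label says whether the 2 libraries of a genotype came from separate plants. For wild-type replicate 1 there were 8973 peaks and for replicate 2 there were 6584, while mta had 1934 and 2092 (7778.5 ± 1689 against 2013.0 ± 112, SD, n = 2 each; two-sided exact permutation p = 0.33, the smallest that 2 against 2 allows). The lists give no read counts, so the depth is unknown, and a gene without a peak may have had little RNA or little m6A, which cannot be told apart here. In whole leaves, fewer cells with a transcript and less of it per cell cannot be told apart either. The fixed markers of leaf photosynthesis (3 genes), guard cells (3 genes) and seed (4 genes, ABI3 and EM6 among them) had 0 peaks in any list, so the lists gave no check of the tissue.

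In wild type, 6 of the 10 core genes had a peak and in mta 1 did. The 6 were ABF2, ABF3, ABF4 and all 3 kinases. The phosphatases ABI1 and ABI2 and the factors ABF1 and ABI5 had a peak in 0 of the 4 lists. That was also so for 69.2% of all protein-coding genes. Wild-type replicate 1 held peaks of 6 core genes and replicate 2 of 4, against 27.0% and 20.3% of all protein-coding genes. The mta lists held 1 and 0 core genes, against 5.60% and 5.99%. Both wild-type lists had ABF3, ABF4, SnRK2.2 and SnRK2.3, that is 4 of 10, where 18.9% of all protein-coding genes were in both. The comparison with all genes is only a description, since it includes genes that leaves may not transcribe and since 10 genes are few. With peaks scoring at least 50 alone, 3 core genes (ABF3, ABF4 and SnRK2.2) stayed in wild-type replicate 1, and 0 in the other 3 lists. That score kept 4245 protein-coding genes in wild-type replicate 1 and 628 in replicate 2. In mta replicates 1 and 2 it kept 260 and 928. Scores only rank peaks within a list, and few genes of any kind stayed outside wild-type replicate 1. The core counts at this score therefore do not compare the lists.

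**Figure D1:**
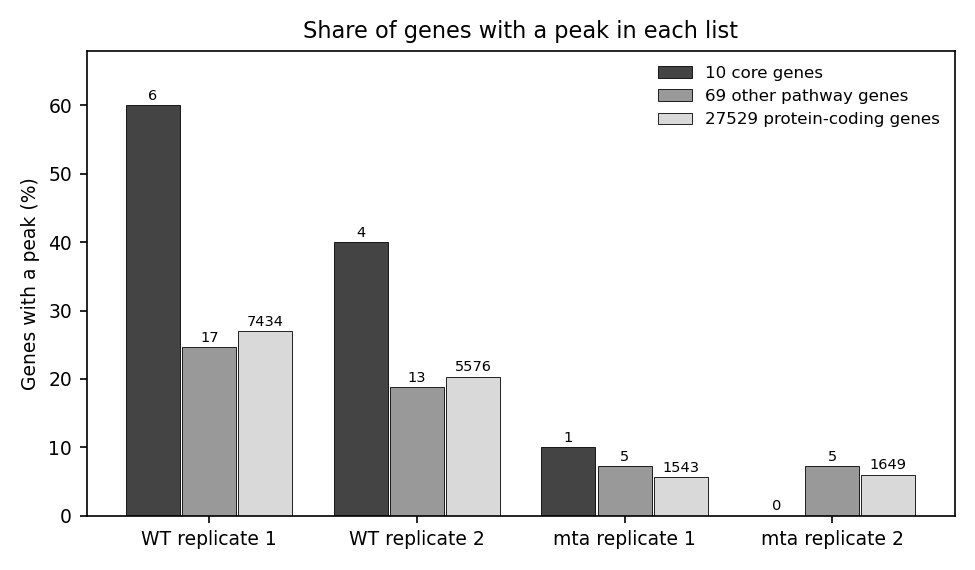
Bars give the share (%) of the 10 core genes, the 69 other genes of the pathway and all 27529 protein-coding genes with a peak in each of the 4 lists, with the number of genes above each bar. Core genes stand at 6 and 4 in wild type and at 1 and 0 in mta.

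Most core genes found in wild type had no peak in mta, a share near that of all genes. Of the 4 core genes found in both wild-type lists, 3 had no mta peak (ABF3, ABF4 and SnRK2.3), beside 74.1% of all 5194 such genes. The fourth, SnRK2.2, had a peak in mta replicate 1, but at another place in the transcript. Read by region, the 5 places where wild-type peaks of core genes overlapped met 0 mta peaks, and 85.8% of all such wild-type peaks met none. One core gene of 10 had a peak in either mta list, against 8.56% of all genes.

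**Figure D2:**
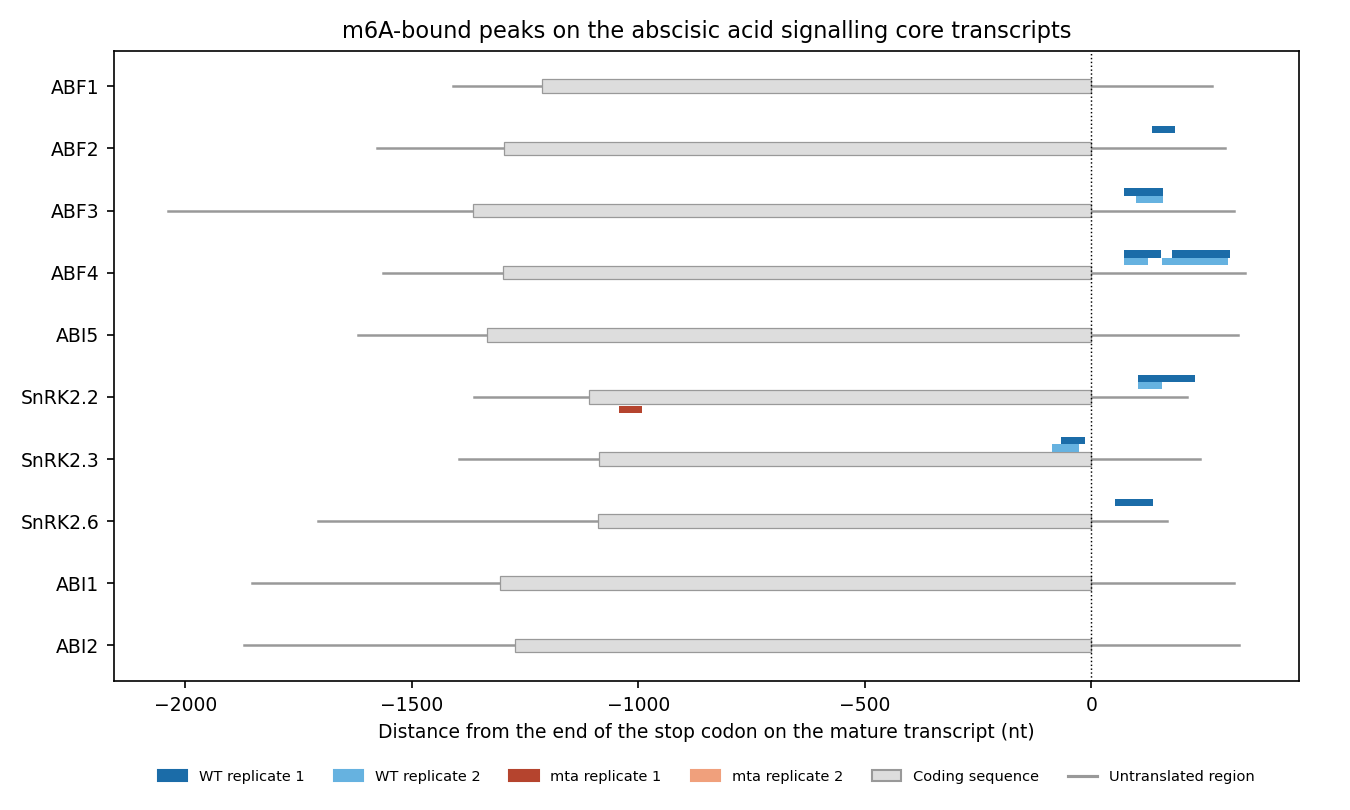
Each of the 10 core transcripts is drawn to scale against the end of its stop codon (x axis, nt on the mature transcript with the longest coding sequence), with coding sequence as a box, untranslated regions as a line and each peak as a coloured bar. Wild-type bars lie in the last exon, past the coding sequence except in SnRK2.3, where they lie inside it just before the stop codon, and the single mta bar lies near the start of SnRK2.2. The SnRK2.2 bar of wild-type replicate 1 runs 16 nt past the end of the transcript model.

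The phosphatases ABI1 and ABI2, which switch the pathway off when no hormone is bound, had no peak in any of the 4 libraries. Having none was the usual state, shared by 69.2% of all protein-coding genes. Their 3' UTRs are 316 and 325 nt long, longer than the median of 278 nt among genes found in both wild-type lists. They hold 3 and 2 matches to RRACH, the textbook consensus of m6A (R stands for A/G, H for A/C/T in DNA letters, and the methylated base is the A before C). ABF1 and ABI5, the other core genes without a peak, have 3' UTRs of 266 and 323 nt with 5 and 8 matches. The 6 genes with a peak have 2 to 4 matches in 3' UTRs of 168 to 339 nt. Neither 3' UTR length nor the number of RRACH matches thus separated core genes with and without a peak, and of all protein-coding genes with an annotated 3' UTR 88.7% hold at least 1 match.

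All 3 kinases had a wild-type peak, each at a different place. Replicate 1 held all 3, beside 27.0% of all protein-coding genes, and replicate 2 held SnRK2.2 and SnRK2.3, beside 20.3%. In SnRK2.2 the peak of wild-type replicate 1 scored 56 (percentile 56.2 of its list) and that of replicate 2 scored 18 (percentile 6.9). Scores are whole numbers given by the authors, of no stated scale, and serve only to rank peaks within a list. These 2 peaks lay in the 3' UTR of the last exon, with midpoints 164 and 129 nt past the stop codon, and shared 54 bp on chromosome 3 from 18741649 to 18741702. The replicates thus differed in rank more than in place: the replicate 2 peak lay wholly within that of replicate 1 and was among the lowest scores of its list. The SnRK2.2 peak of mta replicate 1 was 52 bp wide and scored 47 (percentile 77.8), and mta replicate 2 had none. It lay in the first exon, 91 nt past the first base of the start codon and 1018 nt before the end of the stop codon, from 18743787 to 18743838. Coding peaks were common in that list: 44% of its placed peaks lay in coding sequence, and 71.4% in the last exon.

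SnRK2.3, the closest relative of SnRK2.2, had its wild-type peaks inside the coding sequence. They scored 31 in replicate 1 (percentile 20.8) and 21 in replicate 2 (percentile 18.1), with midpoints 40 and 57 nt before the end of the stop codon in the last of 10 exons, in both annotated transcripts. They shared 40 bp on chromosome 5 from 26712665 to 26712704. Both ranks were low, and neither mta list had a SnRK2.3 peak. In wild type only 8.23% and 8.78% of placed peaks lay in coding sequence.

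The coding peaks of these 2 kinases fell where the genes are nearly alike in sequence. The sequences are shown because the place of the peak is what sets SnRK2.2 and SnRK2.3 apart from the other core genes; they come from the RefSeq copy of TAIR10, 5′ to 3′ on the gene's strand, and capitals mark the bases that differ within a pair. The first pair is the mta replicate 1 peak of SnRK2.2 (chr3:18743787-18743838, minus strand) with its best match in SnRK2.3, and the second is the wild-type replicate 2 peak of SnRK2.3 (chr5:26712645-26712704, plus strand) with its best match in SnRK2.2.
SnRK2.2 (mta peak): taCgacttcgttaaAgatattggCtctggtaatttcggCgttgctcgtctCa
SnRK2.3 (match): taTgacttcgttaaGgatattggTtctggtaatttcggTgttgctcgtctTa
SnRK2.3 (wild-type peak): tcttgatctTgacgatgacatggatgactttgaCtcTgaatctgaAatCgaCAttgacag
SnRK2.2 (match): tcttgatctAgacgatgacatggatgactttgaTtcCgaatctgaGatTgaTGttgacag

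In the first pair 47 of 52 bases were identical, with no identical run longer than 14 bases. In the second pair 53 of 60 were identical, with a longest run of 23. The SnRK2.3 peak of wild-type replicate 1 matched SnRK2.2 at 47 of 54 bases. Identity over the rest of the 2 coding sequences is not given here, so these stretches are not shown to be unusually alike. Each match lay at the corresponding place in the other kinase: 89 nt past the start codon's first base in SnRK2.3, and 57 nt before the end of the stop codon in SnRK2.2. How the authors treated reads that fit both genes is not given in the sources used here, so these 3 peaks are uncertain between the 2 kinases, and whether shared reads contributed to them was not tested. The 3' UTR peaks of core genes had no such match: against the transcripts of the other core and pathway genes, their best ungapped identity ran from 47.6 to 57.4%.

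SnRK2.6, the kinase of stomatal closure, had a peak in wild-type replicate 1 alone. It was 83 bp wide, scored 25 (percentile 12.6) and lay in the 3' UTR 94 nt past the stop codon, on chromosome 4 from 16274710 to 16274792. The score was near the bottom of that list, and replicate 2, the shorter wild-type list, had no SnRK2.6 peak.

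Of the 5 transcription factors, ABF4 had the highest-ranked peaks in both wild-type lists. It carried 2 separate peaks in each replicate, both in the 3' UTR of the last exon. The distal peak scored 84 in replicate 1 (percentile 79.6) and 36 in replicate 2 (percentile 70.7), and the proximal one scored 36 and 17 (percentiles 28.4 and 5.5). Distal midpoints lay 242 and 229 nt past the stop codon and proximal ones 112 and 99 nt, so each place moved by 13 nt between replicates. Of the 5 coding transcripts of ABF4, 3 have a 3' UTR there. The overlaps ran on chromosome 3 from 6689962 to 6690085 and from 6689857 to 6689908. ABF4 was also the 1 core gene left in both wild-type lists when every list was shortened to its 1934 highest-scoring peaks.

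ABF3 had 1 peak in each wild-type replicate, with scores of 55 and 21 (percentiles 54.2 and 18.1). The midpoints lay 115 and 128 nt past the stop codon, and the shared 59 bp ran on chromosome 4 from 16298070 to 16298128. ABF2 had a peak in wild-type replicate 1 alone, 50 bp wide, with a score of 31 (percentile 20.8) and a midpoint 159 nt past the stop codon, on chromosome 1 from 17165236 to 17165285. ABF2, ABF3 and ABF4 are known for acting together in drought responses of growing plants, and all their peaks lay in the 3' UTR. ABF1 and ABI5, the latter best known from seeds and young seedlings, had none.

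Across the core, wild-type peaks lay at the 3' end of the transcripts. Of these 12 peaks, 3' UTRs held 10 and coding sequence 2 (both SnRK2.3), beside 91.5% and 90.8% of all placed peaks in 3' UTRs. All 12 were in the last exon, as were 96.9% and 96.1% of all placed peaks of the 2 lists. The 10 in 3' UTRs lay 94 to 242 nt past the stop codon with a median of 128 nt, where the medians of all 3' UTR peaks were 119 and 118 nt and the quartiles were 79 and 168 nt in replicate 1 and 79 and 169 nt in replicate 2. The distal peak of ABF4 lay beyond the upper quartile in both replicates. Widths ran from 50 to 145 bp with a median of 70.5 bp, against medians of 88 and 83 bp in the lists. Core peaks overlapped between replicates: all 5 core peaks of wild-type replicate 2 met one of replicate 1, and 5 of 7 the other way, beside 87.4% and 63.2% of all peaks.

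**Figure D3:**
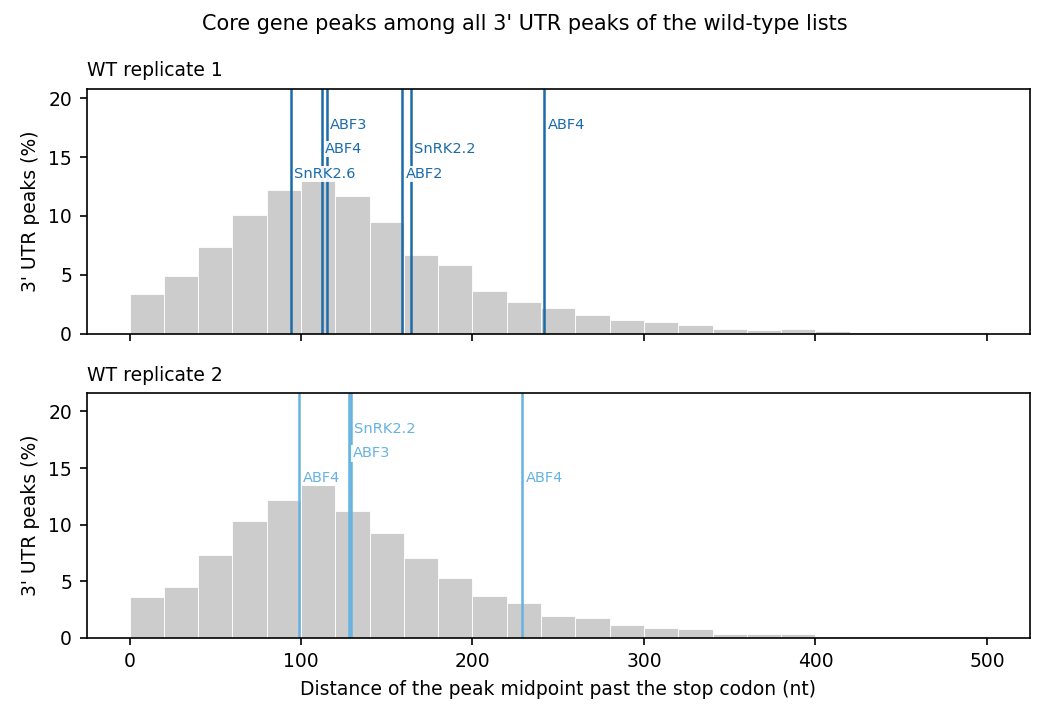
Grey bars show all 3' UTR peaks of each wild-type list by the distance of their midpoint past the stop codon (x axis, nt; y axis, % of 3' UTR peaks in 20-nt bins, shown up to 500 nt). Coloured lines mark the core gene peaks, which lie between 94 and 242 nt, with the distal ABF4 peak farthest out in both lists.

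RRACH lay within 50 nt of peaks of ABF2, ABF3 and ABF4, and of none of the core kinase peaks. Of the 12 wild-type core peaks, 5 had a match wholly within 50 nt of the midpoint (3 of 7 in replicate 1 and 2 of 5 in replicate 2), beside 77.2% and 77.3% of all placed peaks. By region, it was 3 of the 7 wild-type regions: ABF3, the distal ABF4 region and ABF2. Peaks of the 2 replicates over 1 region share their sequence and are not independent, and the difference was not tested. Within 100 nt all 7 wild-type regions had a match, beside 92.4% and 92.3% of all placed wild-type peaks. With the broader DRACH (D stands for A/G/T, so every RRACH match is also one) 5 of the 7 had a match within 50 nt, beside 88.5% and 88.1%.

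The sequences that carry or lack the consensus are shown so that the factor and kinase regions can be set side by side. Each is 25 bases, 5′ to 3′ on the gene's strand in DNA letters from the RefSeq copy of TAIR10. Capitals mark the RRACH nearest to the middle of the region or, where there is none within 50 nt, the nearest DRACH; a sequence with no capitals has neither within 50 nt and shows the middle of the region. Only the gene's strand was searched, and a match is a description, not a mapped m6A site.
ABF2 (chr1:17165232-17165256, minus strand, RRACH): tgctttatttAGACCaagaattttg
ABF3 (chr4:16298108-16298132, plus strand, RRACH): agagatagatAAACAcatatctgtt
ABF4 distal (chr3:6690009-6690033, plus strand, RRACH): ggtttctaaaAGACAtagttgttta
ABF4 proximal (chr3:6689918-6689942, plus strand, DRACH): tatgaataaaTGACAttttgtgccc
SnRK2.3 (chr5:26712665-26712689, plus strand, DRACH): tggatgacttTGACTctgaatctga
SnRK2.2 (chr3:18741663-18741687, minus strand): aagctttggattcacatacatatat
SnRK2.6 (chr4:16274739-16274763, plus strand): tgctattgagttggcccaactttgt

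The 3 RRACH matches all belong to ABF genes, 1 each in ABF2, ABF3 and ABF4, and none to a core kinase. This was not a trait of SnRK2 kinases at large. Each wild-type peak of SnRK2.1, SnRK2.4 and SnRK2.10, kinases of the pathway outside the core, had 2 or 3 matches within 50 nt. The DRACH shown for the proximal ABF4 region lay outside the overlap, 48 nt from its middle. In the distal ABF4 region the A of the match lay 2 nt from the middle of the overlap and 237 nt past the stop codon. In ABF3 it lay 21 nt from the middle and in ABF2 16 nt, both inside the region. In the wild-type regions of SnRK2.2 and SnRK2.3 the nearest RRACH was 89 and 70 nt from the middle, and in SnRK2.6 50 nt, just outside the window that holds the whole motif. The mta peak of SnRK2.2 had no RRACH within 50 nt, and the nearest lay 306 nt away on the genome. It had a DRACH, TGACC, whose A lay 28 nt from the middle and outside the peak. Of all placed peaks of mta replicate 1, 72% had RRACH and 83.5% had DRACH within 50 nt.

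The other 69 genes of the pathway had peaks at shares near those of all protein-coding genes. A peak in each of the wild-type lists was found for 12 of them (17.4%, beside 18.9% of all genes), 11 of which lacked an mta peak (beside 74.1% of all such genes). In single lists the numbers were 17 and 13 for wild type (24.6% and 18.8%, beside 27.0% and 20.3%) and 5 in each mta list (7.25%, beside 5.60% and 5.99%). Of the 14 hormone receptors 0 were in both wild-type lists, where 18.9% of all genes were; the difference was not tested. PYL4, 1 of these receptors, was found in wild-type replicate 1 and both mta lists, with scores of 20, 40 and 50 (percentiles 6.7, 64.2 and 45.8). Its overlapping 3' UTR peaks lay 63, 54 and 67 nt past the stop codon. The receptor PYL7 had a coding-sequence peak in wild-type replicate 2 alone, scoring 19.

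Among the other phosphatases of the ABI1 group, HAB2 was found in both wild-type lists. Its best peaks scored 53 and 36 (percentiles 52.1 and 70.7) and lay 236 and 248 nt past the stop codon. HAB1 had 2 peaks in wild-type replicate 1, both scoring 14. HAI1, which the hormone induces, had a peak in mta replicate 2 alone, scoring 50. It lay in coding sequence in 1 of the 2 coding transcripts and in the 3' UTR in the other. Of all placed peaks of mta replicate 2, 52% lay in coding sequence. Of the 7 other SnRK2 kinases, SnRK2.1, SnRK2.4 and SnRK2.10 had wild-type peaks in both replicates but no mta peak, as had 14.0% of all genes. The difference was not tested. These 3 kinases belong to the branch that abscisic acid does not activate, and their wild-type midpoints lay 80 to 205 nt past the stop codon. SnRK2.8 had a coding peak in mta replicate 1 alone, scoring 29, in a list with 44% of placed peaks in coding sequence. Of the 6 other transcription factors, 2 were found in both wild-type lists, beside 18.9% of all genes. They were AREB3 with scores of 93 and 42 (percentiles 84.7 and 80.1) and GBF4 with best scores of 32 and 29 (percentiles 23.4 and 48.4). Both are relatives of the ABFs.

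Genes that make abscisic acid were found in both wild-type lists in 4 of 10 cases, beside 18.9% of all genes, a difference that was not tested. ABA2, which turns xanthoxin into abscisic aldehyde, scored 101 and 38 (percentiles 88.7 and 73.0). AAO3, which oxidises that aldehyde, scored 55 in replicate 1 and 35 in replicate 2 (percentiles 54.2 and 62.8). Like those of SnRK2.3, the AAO3 midpoints lay in coding sequence, 7 and 8 nt before the end of the stop codon. That place is coding in 4 of the 6 coding transcripts and 3' UTR in 2. ABA3, which makes the cofactor AAO3 needs, scored 66 and 35. ABA1, the zeaxanthin epoxidase at the start of the route, had peaks in all 4 lists at 1 place. Its wild-type scores were 68 and 17 (percentiles 66.7 and 5.5) and its mta scores 36 and 51 (percentiles 57.3 and 48.4). The midpoints lay 120 to 137 nt past the stop codon. ABA4 had a peak in wild-type replicate 1 alone, scoring 91. The 4 hormone-degrading CYP707A genes had none in any list, like 69.2% of all protein-coding genes.

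Of the regulators, KEG, a ubiquitin ligase that keeps ABI5 low, was found in both wild-type lists with scores of 55 and 35 (percentiles 54.2 and 62.8). AFP2, which binds ABI5, was found in replicate 1 alone with a coding peak scoring 38. RBOHD, an oxidase that makes reactive oxygen, scored 58 and 32 in wild type (percentiles 57.8 and 53.9). The transporter NPF4.6 had a peak in wild-type replicate 1 alone, scoring 17.

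Of 9 target genes that abscisic acid and stress switch on, 0 had a wild-type peak, beside 27.0% and 20.3% of all genes in replicates 1 and 2. In mta 3 had a peak, beside 8.56% of all genes with a peak in either mta list. These differences were not tested. The other 6, RD29A and RD29B among them, had none in any list, like 69.2% of all protein-coding genes. COR15A is a cold-induced protein that protects chloroplast membranes. With scores of 36 and 51 (percentiles 57.3 and 48.4), it had a 3' UTR peak in both mta lists. RAB18, a dehydrin, had one in mta replicate 1 scoring 37, and RD26, a NAC transcription factor, had one in mta replicate 2 scoring 58, in the 3' UTR of 1 transcript that is not the one with the longest coding sequence. With SnRK2.8 and HAI1, 5 of the 69 genes had an mta peak and no wild-type peak, beside 2.37% of all protein-coding genes. Their RNA levels were not measured in these lists, and the part of RNA level in these calls was not tested.

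**Figure D4:**
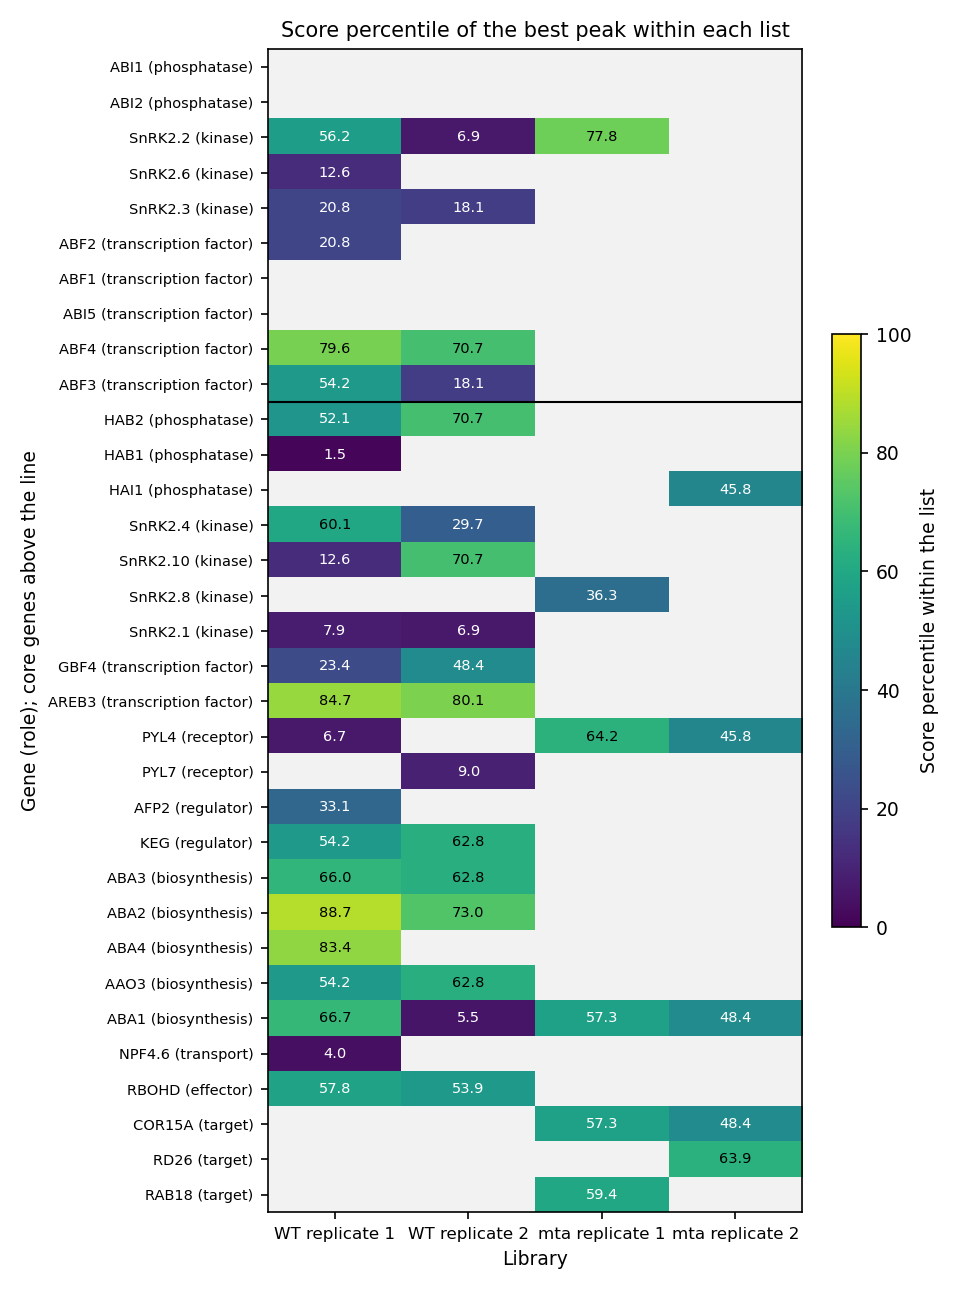
Colour and number give the score percentile, within its own list, of the best peak of each gene (rows) in each library (columns), for the 10 core genes above the line and the 23 other pathway genes with any peak below it; empty cells have no peak. Most filled cells lie in the wild-type columns, and HAI1, SnRK2.8, COR15A, RD26 and RAB18 are filled in mta alone.

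Several pathway genes had the same presence and absence in the 4 lists as a core gene. The pattern of ABF3, ABF4 and SnRK2.3 (both wild-type lists, neither mta list) was shared by 3850 protein-coding genes (14.0%), 11 of the pathway among them. By the mean absolute difference of best-peak percentiles over the 2 wild-type lists, the nearest to ABF4 were ABA2 at 5.7 points, AREB3 at 7.2 and ABA3 at 10.8. The nearest to ABF3 was SnRK2.4 at 8.8 points, and the nearest to SnRK2.3 was SnRK2.1 at 12.1. The pattern of ABF2 and SnRK2.6, a peak in wild-type replicate 1 alone, was shared by 1969 genes. Over that 1 list, AFP2 was nearest to ABF2 at 12.3 points and NPF4.6 to SnRK2.6 at 8.6. The pattern of SnRK2.2 was shared by 417 genes, 0 of the pathway's others among them.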

How the data were processed

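Peaks of 4 m6A-bound libraries were used, 2 per genotype. The submitters' processing notes name TAIR10, MACS2 and STAR 2.4.0; no source used here gives the MACS2 version, control or threshold. In each deposited list stand a position, a strand and the authors' whole-number score per peak. Peak names show calling per library and per strand. The peak names of mta replicate 2 are built differently, and its lowest score was 20 against 13 in the other lists.

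Positions were read as counted from 0 at the start and placed on the RefSeq copy of TAIR10 (TAIR10.1): 0 nuclear or chloroplast peaks ended past their chromosome, and 97.5% of 19583 midpoints lay in a same-strand exon. The 27 mitochondrial peaks were not placed, and midpoints shared by exons of several genes were left out (12 to 28 per list). Location used each gene's transcript of longest coding sequence; distances run from the last base of the stop codon. Overlap meant at least 1 bp on the same strand. Percentiles place tied scores at the middle of their ranks. Placement was tested on simulated data. Scripts ran in Python 3.11.15. The members and lists were chosen with earlier results of these data known. Named were all core genes and every other pathway gene with a peak; likeness used percentiles, with ties to the lower locus. Alternatives covered threshold, list length, overlap, gene model, motif and leaving out each library.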

Additional observations from a re-analysis of the deposited data

How the results depend on the processing

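Counting a gene by any overlap with its exons, or counting regions as shared from 50% of the shorter peak, changed none of the gene or region counts tested. With scores of at least 50, the counts of core genes in both wild-type lists and of those without an mta peak fell to 0. The counts of core genes in mta and of pathway genes in both wild-type lists also fell to 0. Core 3' UTR peaks fell to 3. Wild-type replicate 2 reaches a score of only 58 and kept 628 protein-coding genes against 4245 in replicate 1. The mta lists kept 260 in replicate 1 and 928 in replicate 2. With every list shortened to 1934 peaks, 1 core gene (ABF4) was in both wild-type lists, it had no mta peak, and 2 pathway genes were in both. Leaving out 1 library at a time, core genes in wild type ran from 4 to 6, those without an mta peak from 3 to 5 (5 without wild-type replicate 2), core genes in mta from 0 to 1 and pathway genes in wild type from 12 to 17. The single mta call rests on mta replicate 1. With the transcript of longest mature length, core 3' UTR peaks fell from 10 to 6, because the 4 ABF4 peaks lie outside that transcript. Of 8 core regions (7 wild-type and the mta region of SnRK2.2), RRACH lay near 3 within 25 or 50 nt and near 7 within 100 nt, and DRACH near 6 within 50 nt. Ranking within a strand moved the median core percentile from 20.8 to 21.9. That median pools best-peak percentiles of both wild-type lists and the SnRK2.2 peak of mta replicate 1, so genes in both wild-type lists count more than once. The ratio of peak numbers, wild type to mta, was 3.86, and 3.27 to 4.46 without each library in turn, a check chosen after seeing the data. No paired analysis was possible because the core results are counts and places of peaks that come from no fit, and equal replicate numbers mark no shared plants or days in the labels. Unknown depth limits every absence above.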

Other observations

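Some peaks lay beside core genes on the opposite strand and were given to the neighbouring gene. A peak of wild-type replicate 1 scoring 45, on chromosome 1 from 18402476 to 18402553, had its midpoint inside ABF1 but on the minus strand, in an exon of AT1G49730. Peaks of both wild-type lists over the end of ABF3, scoring 70 and 28, belonged to DJ1C (AT4G34020) on the minus strand. Peaks of both wild-type lists just past the end of ABI1, scoring 77 and 20, belonged to MEK1 (AT4G26070), a kinase gene on the plus strand. ABF1 and ABI1 thus had no peak of their own although a neighbour that converges on them had one.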
